A study of Mus musculus with 8 samples.

Results

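The genes described here are the Notch receptors, their Jagged and Delta ligands and the Hes and Hey targets in primary mouse peritoneal mesothelial cells (MCs), the cells that line the abdominal cavity. They were chosen by name from a list of 10 genes, of which 6 have a row in the deposited table of 13687 genes: the receptors Notch1, Notch2 and Notch3, the ligands Jag1 and Jag2, and the target Hes1. Dll1, Hey1, Hey2 and Heyl have no row and are not analysed here. The study asked how loss of CAV1, a protein of the small membrane pits called caveolae, changes the response of MCs to mechanical stretching. RNA was sequenced from confluent MCs of 2 wild-type (WT) mice and of 2 CAV1-/- littermates, which carry the Cav-1- allele of the strain B6.Cg-CAV1tm1mls/J. Each of the 4 animals gave 1 culture kept static and 1 culture stretched for 24 h, so that there were 8 libraries in 4 groups of 2 cultures. The mutation was present in the whole animal and not in MCs alone, and no age of the mice is given in the sources used here.

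Notch receptors sit in the cell membrane and are activated by ligands on a neighbouring cell. The ligand allows the protease ADAM10 and then the gamma-secretase complex to cut the receptor, and the freed intracellular domain enters the nucleus, where it joins the DNA-binding protein RBPJ and a Mastermind coactivator and switches on Hes and Hey genes, which code for transcriptional repressors. The pathway is known for its part in cell fate decisions, in vessel walls and in epithelial-to-mesenchymal transition, a change of shape and identity whose mesothelial form (MMT) was the subject of the study. RNA levels of these genes do not measure receptor cleavage or signaling.

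Values are TMM-normalized CPM, that is read counts scaled by edgeR to a common library size. They were whole multiples of 1 read, so that the whole count behind each value can be recovered. The paper took expected counts from the program RSEM into edgeR, so the reads given here are estimated counts in whole numbers. The libraries held between 9777738 and 21203938 reads, and the shallowest stretched library held more reads than the deepest static one (15861571 against 14237503), so that depth and stretching cannot be told apart. Cav1 RNA was between 247 and 764 in the WT libraries and between 12.8 and 34.5 in the CAV1-/- libraries. The summed level of 13 mesothelial markers was 3119 to 4120 in WT and 925 to 1177 in CAV1-/- libraries, and of the 14 markers listed Calb2 has no row. The 11 leukocyte markers with a row summed to 4900 and 4886 in the static and stretched cultures of CAV1-/- replicate 1, and to between 82.4 and 475 in the other 6 libraries. Most of the sum in that animal came from Lyz2, at 3647.5 and 3920, against 27.5 to 345 in the other 6 libraries. The other leukocyte markers were also highest in that animal. Fibroblast markers summed to between 1315 and 1618 in both cultures of replicate 2 of each genotype and to between 71.3 and 812 in those of replicate 1. In these bulk samples, fewer cells of a type and less RNA per cell cannot be told apart. The MCs were freed from the parietal peritoneum with trypsin and grown in culture. Animals were separate within a genotype, but each gave only 1 culture per condition, and p-values measure the spread between these cultures.

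Set beside each other per kilobase of merged exons, the members spanned a wide range of levels. Notch2 was the most abundant receptor in every library, at 13.5 to 26.1 TMM-normalized CPM per kilobase. Notch1 was at 0.225 to 2.21 and Notch3 at 0.219 to 0.979 on the same scale, and the libraries of these receptors overlapped. Notch4, a receptor outside the members, was at 0.0868 to 0.611. Between the ligands the difference was larger, since the level of Jag1 per kilobase was 20.2 to 395 times that of Jag2 within a library. In static cultures of both genotypes the order by mean was Notch2, Hes1, Jag1, Notch1, Notch3 and Jag2, and no library of Jag1 reached a library of Hes1. In stretched CAV1-/- cultures Jag1 had the highest mean, 29.7 per kilobase against 22.9 for Notch2 and 17.1 for Hes1, but the Jag1 and Notch2 libraries overlapped. In stretched WT cultures the libraries of Notch2, Jag1 and Hes1 all overlapped.

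**Figure D1:**
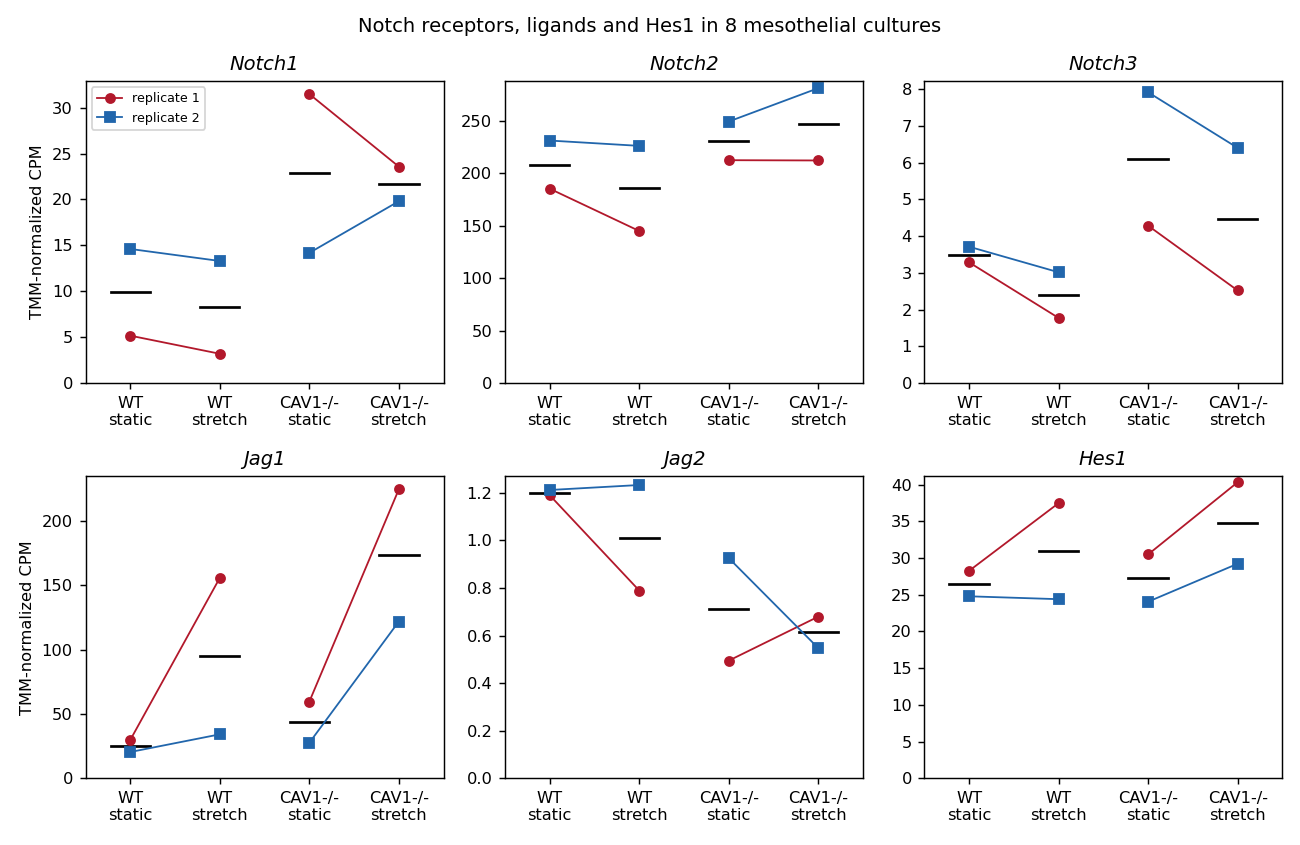
TMM-normalized CPM of the 6 members in each of the 8 cultures, with a line joining the static and stretched culture of 1 animal and a horizontal bar at the mean of each group of 2. Jag1 was higher in the stretched culture of each of the 4 animals, from 1.67 to 5.22 times, while Notch1 was highest in CAV1-/- replicate 1 and lowest in WT replicate 1.

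Jag1 (ENSMUSG00000027276, GRCm38 chr2:137081456-137116644, minus strand), which codes for a membrane-bound ligand of the Notch receptors, was the member that changed most on stretching. Static WT cultures had 29.9 and 20.5 TMM-normalized CPM of Jag1, and stretched WT cultures had 156 and 34.3. Static CAV1-/- cultures had 59.6 and 27.7, and stretched ones 225 and 122. The stretched culture was the higher one in all 4 animals, and in neither genotype did the static and stretched groups overlap. Of all genes tested, 14.5% were higher in all 4 animals. Higher on stretching without overlap were 1900 of the 13665 genes tested in WT and 1688 in CAV1-/- cultures. Within WT animals the ratio of stretched to static was 5.22 in replicate 1 and 1.67 in replicate 2. Within CAV1-/- animals it was 3.77 and 4.41. The values rest on 254 to 4630 reads, and no exon of another annotated gene overlaps the exons of Jag1.

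When all 4 animals were fitted together, with 1 mean per animal and 1 stretch effect, Jag1 rose by 1.76 on the log2(value + 1) scale (SE 0.24, 95% confidence interval 1.21 to 2.32, n = 4 pairs, limma adjusted p = 0.0198). It was called with edgeR (adjusted p = 0.022) and DESeq2 (adjusted p = 2.78e-05) on the recovered reads as well. In this comparison 308 of 13665 genes tested passed an adjusted p under 0.05, 2.25% of all, and Jag1 was the only 1 of the 6 members among them. The size of the Jag1 change varied little between settings, but the call did not hold in all of them. Without the animal in the model the change was 1.76 with a limma adjusted p of 0.703, and 0 genes in all were called. Leaving out either culture of CAV1-/- replicate 1 gave 1.72 with an adjusted p of 0.103, and leaving out the static or stretched culture of CAV1-/- replicate 2 gave 1.65 with 0.0779 and 0.0786. Without a WT culture Jag1 stayed called, at 1.57 to 2.11. In this fit a culture whose partner is left out carries no information on stretching. Leaving out 1 culture therefore takes its whole animal out of the stretch effect. A permutation test over 4 pairs cannot give a two-sided exact p below 0.125. The summed mesothelial markers were lower in the stretched than in the static culture of each animal. Of the 13 with a row, 9 had a negative and 4 a positive fitted stretch effect, beside 7141 and 6524 of the 13665 genes tested. At a limma adjusted p under 0.05, 3 of the 13 were called lower and 0 higher. Among all genes tested, 167 were called lower and 141 higher. Of the 13 markers, 6 were lower in all 4 animals, and 1 (Pdpn, at 1.01 to 1.34 times its static level) was higher. The shares over all genes tested were 16.9% lower and 14.5% higher. Of the 9 smooth muscle and pericyte markers with a row, Pdgfrb was called higher on stretching (1.28 to 1.78 times, limma adjusted p = 0.0304), and Cspg4 was at 1.34 to 5.56 times its static level (adjusted p = 0.0654). Acta2 and Myh11 were lower in all 4 stretched cultures than in their static partners (adjusted p = 0.0856 and 0.0847). The part of these markers in the Jag1 result was not tested. Markers of endothelial cells, which express Jag1 in tissue, summed to between 51.1 and 119 over 6 of 12 listed markers. Most of the sum came from Kdr, at 7.75 to 66.0, and Esam, at 15.3 to 47.0. The paper names KDR among the markers that MCs share with endothelial cells. Vwf reached 12.5, and Cdh5 was at 0.247 to 1.65. Pecam1, Tie1, Erg, Cldn5, Sox17 and Plvap have no row.

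Within each genotype, with 2 cultures against 2, the change of Jag1 was 1.53 in WT (SE 0.75, limma adjusted p = 1) and 2.00 in CAV1-/- MCs (SE 0.75, limma adjusted p = 1). With the animal as a replicate block, the sizes were the same and the adjusted p was 0.19 in WT and 0.139 in CAV1-/- MCs. The share of all genes called was 0% in either comparison with limma, and the share at an unadjusted p of at most 0.05 was 2.27% in WT and 2.09% in CAV1-/- MCs. The difference between the genotypes in the response of Jag1 was 0.47 (SE 1.07, 95% confidence interval -2.13 to 3.07, limma adjusted p = 1), an interval that leaves room for a larger response in either genotype. CAV1-/- MCs had more Jag1 than WT MCs on average by 0.69 in static and by 1.16 in stretched cultures on the log2 scale, but the cultures overlapped in both conditions (limma adjusted p = 0.898 and 0.951). Single cultures set the size of these values. The change in WT was 0.45 without stretched replicate 1 and 2.61 without stretched replicate 2. The static difference between genotypes was 0.15 without CAV1-/- replicate 1 and 1.23 without CAV1-/- replicate 2. The stretched difference was 0.09 without WT replicate 2 and 2.24 without WT replicate 1.

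**Figure D2:**
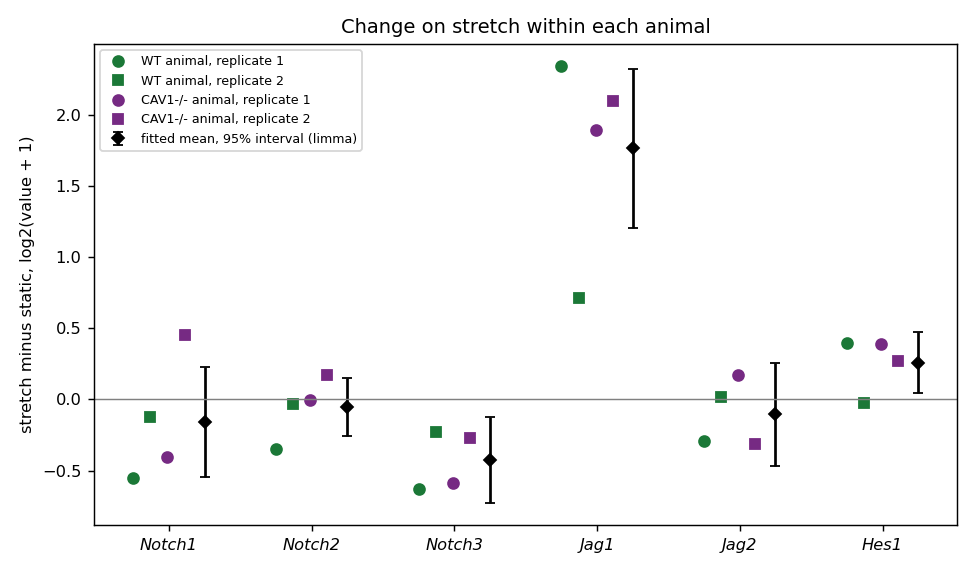
Change on stretching within each animal, as the stretched minus the static value on log2(value + 1), for the 6 members (WT green, CAV1-/- purple), with the fitted mean over 4 animals and its 95% confidence interval from limma in black. The interval of Jag1, 1.21 to 2.32, lies apart from that of each other member, and Notch3 lies below 0 in all 4 animals.

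The 300 bases around the start of Jag1 are shown because Jag1 was the member called on stretching. RBPJ, the DNA-binding protein of the pathway, recognises the letters TGGGAA. These letters were searched on both strands, together with the longer GTGGGAA that contains them, in RefSeq promoter windows on GRCm38.p6. Of the 6 members, 5 have a window, and neither motif is in any of them; Hes1 has no entry. Over all 32851 windows, 25.6% hold TGGGAA and 6.38% hold GTGGGAA. Among the pathway genes with a window, 12 of 48 windows hold TGGGAA and 4 hold GTGGGAA. The windows of Rbpj itself and of Lfng, a sugar transferase that modifies the receptors, are given beside that of Jag1 as examples that hold the letters, with matches in capitals (TTCCCA is the match on the other strand). They lie at chr2:137116471-137116770 (minus strand) for Jag1, chr5:53590096-53590395 (plus strand) for Rbpj and chr5:140607091-140607390 (plus strand) for Lfng.
Jag1: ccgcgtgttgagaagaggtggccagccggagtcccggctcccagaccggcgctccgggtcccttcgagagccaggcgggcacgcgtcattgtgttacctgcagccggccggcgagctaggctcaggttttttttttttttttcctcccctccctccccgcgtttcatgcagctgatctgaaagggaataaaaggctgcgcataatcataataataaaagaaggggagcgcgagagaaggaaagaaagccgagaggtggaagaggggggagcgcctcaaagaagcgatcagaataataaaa
Rbpj: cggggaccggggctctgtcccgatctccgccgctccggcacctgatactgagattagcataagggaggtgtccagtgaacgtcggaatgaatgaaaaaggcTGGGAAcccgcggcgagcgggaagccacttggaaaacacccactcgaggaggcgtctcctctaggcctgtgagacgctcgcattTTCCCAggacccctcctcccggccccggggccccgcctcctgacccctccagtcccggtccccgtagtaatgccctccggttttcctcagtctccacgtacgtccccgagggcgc
Lfng: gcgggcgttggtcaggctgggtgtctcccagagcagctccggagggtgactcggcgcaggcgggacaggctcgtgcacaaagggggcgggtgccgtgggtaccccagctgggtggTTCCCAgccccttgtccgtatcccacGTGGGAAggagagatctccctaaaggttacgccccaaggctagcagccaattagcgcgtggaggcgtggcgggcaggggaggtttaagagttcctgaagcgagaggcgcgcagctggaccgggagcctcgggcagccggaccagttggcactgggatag
In the Rbpj window the matches start at positions -149 and -65 relative to the start. In the Lfng window they start at -135 and -108, and the latter is part of GTGGGAA.

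Jag2 (ENSMUSG00000002799, GRCm38 chr12:112907819-112929776, minus strand), the second Jagged ligand, was near the limit of detection. Its levels were 1.19 and 1.21 TMM-normalized CPM in static WT, 0.789 and 1.23 in stretched WT, 0.494 and 0.925 in static CAV1-/- and 0.679 and 0.547 in stretched CAV1-/- cultures. These values rest on 6 to 20 reads, against a floor of 3 reads that corresponds to 0.146 to 0.308. Both CAV1-/- cultures lay below both WT cultures in either condition, with log2 differences of -0.38 in static and -0.31 in stretched cultures (limma adjusted p = 0.826 and 0.976). On stretching, 2 animals had less Jag2 and 2 had more, and the fitted change was -0.11 (SE 0.16, limma adjusted p = 0.731).

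Of the receptors, Notch1 (ENSMUSG00000026923, GRCm38 chr2:26457903-26516663, minus strand) varied most. Static WT cultures had 5.18 and 14.6 TMM-normalized CPM of Notch1, and stretched WT cultures had 3.21 and 13.3. Static CAV1-/- cultures had 31.5 and 14.2, and stretched ones 23.6 and 19.8. In both conditions WT replicate 1 was the lowest and CAV1-/- replicate 1 the highest. CAV1-/- exceeded WT by 1.18 in static (SE 0.72, limma adjusted p = 0.795) and by 1.54 in stretched cultures (SE 0.72, limma adjusted p = 0.871), and the groups overlapped in static cultures only. Notch1 is also expressed by leukocytes, and CAV1-/- replicate 1 was the animal whose leukocyte markers summed to 4900 and 4886. Without both cultures of that animal the differences were 0.63 (limma adjusted p = 0.914) and 1.42 (limma adjusted p = 0.875). WT replicate 1, lowest in Notch1, had leukocyte sums of 470 and 475, above the 82.4 and 87.1 of WT replicate 2. The part of leukocytes in the level of Notch1 was not tested, and leaving out an animal removes all its other traits as well. In the annotation, 1482 of the 14232 exon bases of Notch1 are also covered by transcripts on the opposite strand, among them 0610009E02Rik, and reads there cannot be assigned to a strand where the counting does not use it. Stretching changed Notch1 by -0.16 over the 4 animals (SE 0.16, limma adjusted p = 0.621), with less Notch1 in 3 animals and more in CAV1-/- replicate 2.

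Notch2 (ENSMUSG00000027878, GRCm38 chr3:98013527-98150361, plus strand) varied least among the receptors. Its levels were 185 and 231 TMM-normalized CPM in static WT, 145 and 226 in stretched WT, 212 and 249 in static CAV1-/- and 212 and 281 in stretched CAV1-/- cultures. The highest library was 1.94 times the lowest, and WT and CAV1-/- overlapped in both conditions. The difference between CAV1-/- and WT was 0.15 in static and 0.43 in stretched cultures (limma adjusted p = 0.94 and 0.95). The stretch effect over the 4 animals was -0.05 with a 95% confidence interval of -0.26 to 0.15 (limma adjusted p = 0.76).

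Notch3 (ENSMUSG00000038146, GRCm38 chr17:32120820-32166852, minus strand), a receptor best known from smooth muscle cells and pericytes, was low. Levels were 3.29 and 3.71 TMM-normalized CPM in static WT, 1.78 and 3.02 in stretched WT, 4.29 and 7.92 in static CAV1-/- and 2.52 and 6.40 in stretched CAV1-/- cultures, on 36 to 117 reads. The stretched culture was the lower one in all 4 animals, a pattern that 16.9% of the genes tested shared, and the higher one in all 4 animals was found for 14.5%. The fitted change was -0.43 (SE 0.13, 95% confidence interval -0.73 to -0.13, limma adjusted p = 0.119), which did not pass the threshold. Between the genotypes, both static CAV1-/- cultures lay above both WT cultures (log2 difference 0.61, limma adjusted p = 0.83), and the stretched cultures overlapped (0.61, adjusted p = 0.959). Without CAV1-/- replicate 1 the differences were 0.99 (limma adjusted p = 0.541) and 1.15 (limma adjusted p = 0.615), more than 1.5 times as large. In each group replicate 2, with the higher fibroblast sums, had more Notch3 than replicate 1. Smooth muscle and pericyte markers, of which 9 of 11 have a row, summed to between 4326 and 11185, with most of the sum from Acta2 and Tagln, and the sum was higher in replicate 1 of each group. Pdgfrb, a pericyte and fibroblast marker, went the other way, at 37.2, 62.9, 69.4 and 123 in replicate 1 and 204, 261, 149.7 and 197 in replicate 2 of static WT, stretched WT, static CAV1-/- and stretched CAV1-/- cultures. Cspg4 was higher in replicate 2 of WT only, and Kcnj8 in replicate 2 of CAV1-/- only. The part of these markers in the level of Notch3 was not tested.

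**Figure D3:**
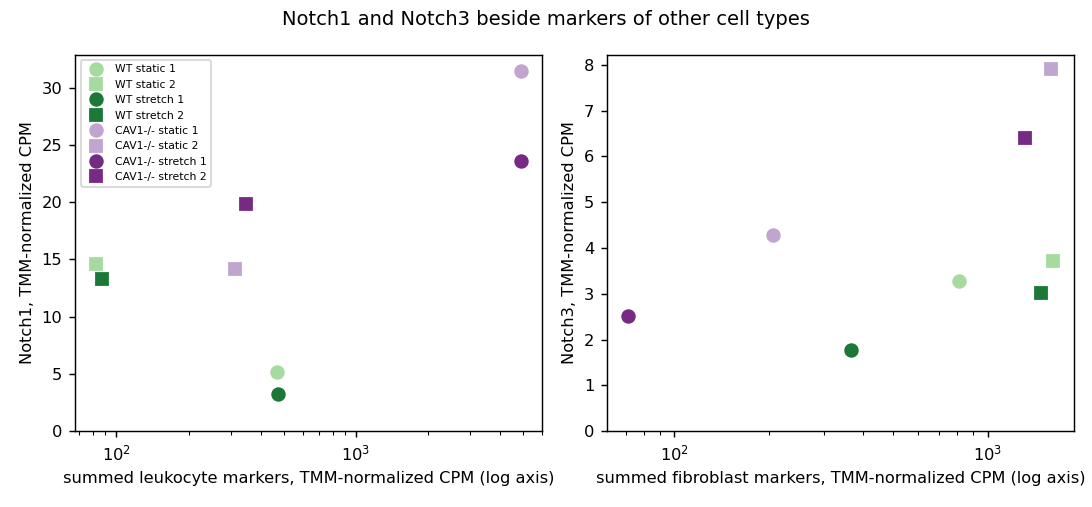
Left, Notch1 against the summed leukocyte markers and right, Notch3 against the summed fibroblast markers, 1 point per culture, with TMM-normalized CPM on both axes and a log scale on the horizontal axis. The 2 cultures of CAV1-/- replicate 1 lie apart at leukocyte sums of 4900 and 4886 with the highest Notch1, and among the other 6 cultures Notch1 ran from 3.21 to 19.8.

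Hes1 (ENSMUSG00000022528, GRCm38 chr16:30064384-30067796, plus strand), a repressor switched on by Notch and by other signals, was the only target with a row. Its values were 28.3 and 24.8 TMM-normalized CPM in static WT, 37.5 and 24.4 in stretched WT, 30.5 and 24.1 in static CAV1-/- and 40.3 and 29.2 in stretched CAV1-/- cultures. Hes1 was higher on stretching in 3 animals, by 1.33, 1.32 and 1.21 times, and WT replicate 2 had 0.984 times its static level. WT replicate 2 was also the animal with the smallest ratio of Jag1, at 1.67. In WT replicate 1 and CAV1-/- replicates 1 and 2, Hes1 ratios of 1.33, 1.32 and 1.21 went with Jag1 ratios of 5.22, 3.77 and 4.41. The relation between Jag1 and Hes1 was not tested. The fitted change was 0.26 (SE 0.09, 95% confidence interval 0.05 to 0.47, limma adjusted p = 0.164), which did not pass the threshold. CAV1-/- and WT differed by 0.03 in static and 0.18 in stretched cultures, with overlapping groups (limma adjusted p = 0.993 and 1.00). Thus 3 of the 6 members had an unadjusted p of at most 0.05 for stretching over the 4 animals, against 21.6% of all genes tested.

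No member was called between the genotypes. In static cultures 10 genes were called, 0.0732% of those tested, and in stretched cultures 8, or 0.0585%. None of the 6 members had an unadjusted p of at most 0.05 in limma, a level reached by 8.17% and 6.26% of all genes, and edgeR and DESeq2 called none either, also with 0 at that unadjusted p. With the replicate block, 2 of the 6 had such a p in stretched cultures, in limma and in edgeR. Of the 13665 genes tested, 1866 and 1992 had such a p in these fits. With the groups not overlapping, 1 member (Notch3) was higher and 1 (Jag2) lower in static CAV1-/- MCs, where 16.1% and 20.8% of all genes were. In stretched CAV1-/- MCs 1 member (Notch1) was higher and 1 (Jag2) lower, against 14.6% and 15.9% of all genes. The median log2 difference of the 6 members was 0.38 in static and 0.52 in stretched cultures, beside -0.01 and 0 over all genes tested. For the genotype by stretch interaction, all 6 estimates were above 0, as were those of 7191 of the 13665 genes tested. The median of the 6 was 0.21 beside 0.01 over all genes. Each of the 6 estimates changed sign in a fit with 1 culture left out. None of the 6 had an unadjusted limma p of at most 0.05. Of all genes, 0% were called and 0.483% had such a p.

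The list of other pathway genes has 52 names, of which 42 have a row. Over the 4 animals 21 of the 42 had a positive and 21 a negative stretch effect, with a median of 0.00 beside -0.01 over all genes. Furin, the protease that cuts Notch receptors and many other proteins during their maturation, was the only 1 of the 42 called. WT cultures had 127 and 174 TMM-normalized CPM of Furin in static and 188 and 199 in stretched conditions. CAV1-/- cultures had 176 and 168 in static and 317 and 244 in stretched conditions. All 4 animals had more Furin on stretching, and the change was 0.53 (SE 0.10, limma adjusted p = 0.0464). This call is at the threshold, since edgeR gave an adjusted p of 0.0513, a pseudocount of 5 gave 0.0522, and leaving out a culture of WT replicate 1 or of either CAV1-/- animal gave 0.10 to 0.138. Within CAV1-/- MCs the change of Furin was 0.69 (limma adjusted p = 1), and stretched CAV1-/- MCs exceeded stretched WT MCs by 0.52 (limma adjusted p = 0.713).

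A further 7 pathway genes differed in one direction in all 4 animals with an unadjusted p of at most 0.05 and did not pass the adjusted threshold. With Furin, 8 of the 42 had such a p, against 21.6% of all genes tested. Lower on stretching were Lfng, the Fringe enzyme (-0.42, limma adjusted p = 0.0722), Psen2, a catalytic subunit of gamma-secretase (-0.38, adjusted p = 0.0711), Neurl1b, a ubiquitin ligase for Notch ligands (-0.30, adjusted p = 0.206), and Kat2b, an acetyltransferase coactivator (-0.23, adjusted p = 0.191). Higher were Fbxw7, which targets the freed Notch domain for degradation (0.32, limma adjusted p = 0.0771), Poglut1, which adds glucose to Notch (0.21, adjusted p = 0.164), and Itch, a ubiquitin ligase (0.17, adjusted p = 0.141). Within single genotypes, Maml2 was lower in stretched WT (-0.43), and Fbxw7 (0.39) and Mib1, a ubiquitin ligase needed for ligand activity (0.27), were higher in stretched CAV1-/- MCs, each with a limma adjusted p of 1.

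Between the genotypes, Rbpj was higher in CAV1-/- MCs in both conditions. It codes for the DNA-binding protein shared by all Notch receptors. WT cultures had 139 and 133 TMM-normalized CPM of Rbpj in static and 154 and 139 in stretched conditions. CAV1-/- cultures had 224 and 193 in static and 248 and 194 in stretched conditions. Every CAV1-/- library lay above every WT library, with a difference of 0.61 in static (SE 0.16, limma adjusted p = 0.313) and 0.58 in stretched cultures (SE 0.16, limma adjusted p = 0.459), so that it was not called in either. Maml2, a Mastermind coactivator, was the reverse in static cultures, at 34.0 and 33.3 in WT and 15.99 and 21.59 in CAV1-/- MCs. The difference was -0.82 (SE 0.17, limma adjusted p = 0.197), which DESeq2 on the recovered reads called (adjusted p = 0.019). Dtx2, a Deltex ubiquitin ligase (-0.46, limma adjusted p = 0.565), and Hes6, a member of the Hes family (-0.39, adjusted p = 0.51), were also lower in static CAV1-/- MCs without overlap. Without overlap, 3 of the 42 were higher and 16 lower in static CAV1-/- MCs, where 16.1% and 20.8% of all genes were. In stretched CAV1-/- MCs 9 were higher and 7 lower, against 14.6% and 15.9% of all genes. In all, 8 of the 42 pathway genes had a positive and 34 a negative difference in static cultures (median -0.18 beside -0.01 over all genes), and 19 and 23 in stretched cultures (median -0.01 beside 0). Of all 13665 genes tested, 6528 had a positive and 7134 a negative difference in static cultures, and 6831 and 6831 in stretched cultures. None of the 42 was called by limma in either condition. At an unadjusted limma p of at most 0.05, 1 was higher and 3 were lower in static CAV1-/- MCs, and 2 were higher in stretched ones. The share of all genes at that p was 8.17% in static and 6.26% in stretched cultures.

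**Figure D4:**
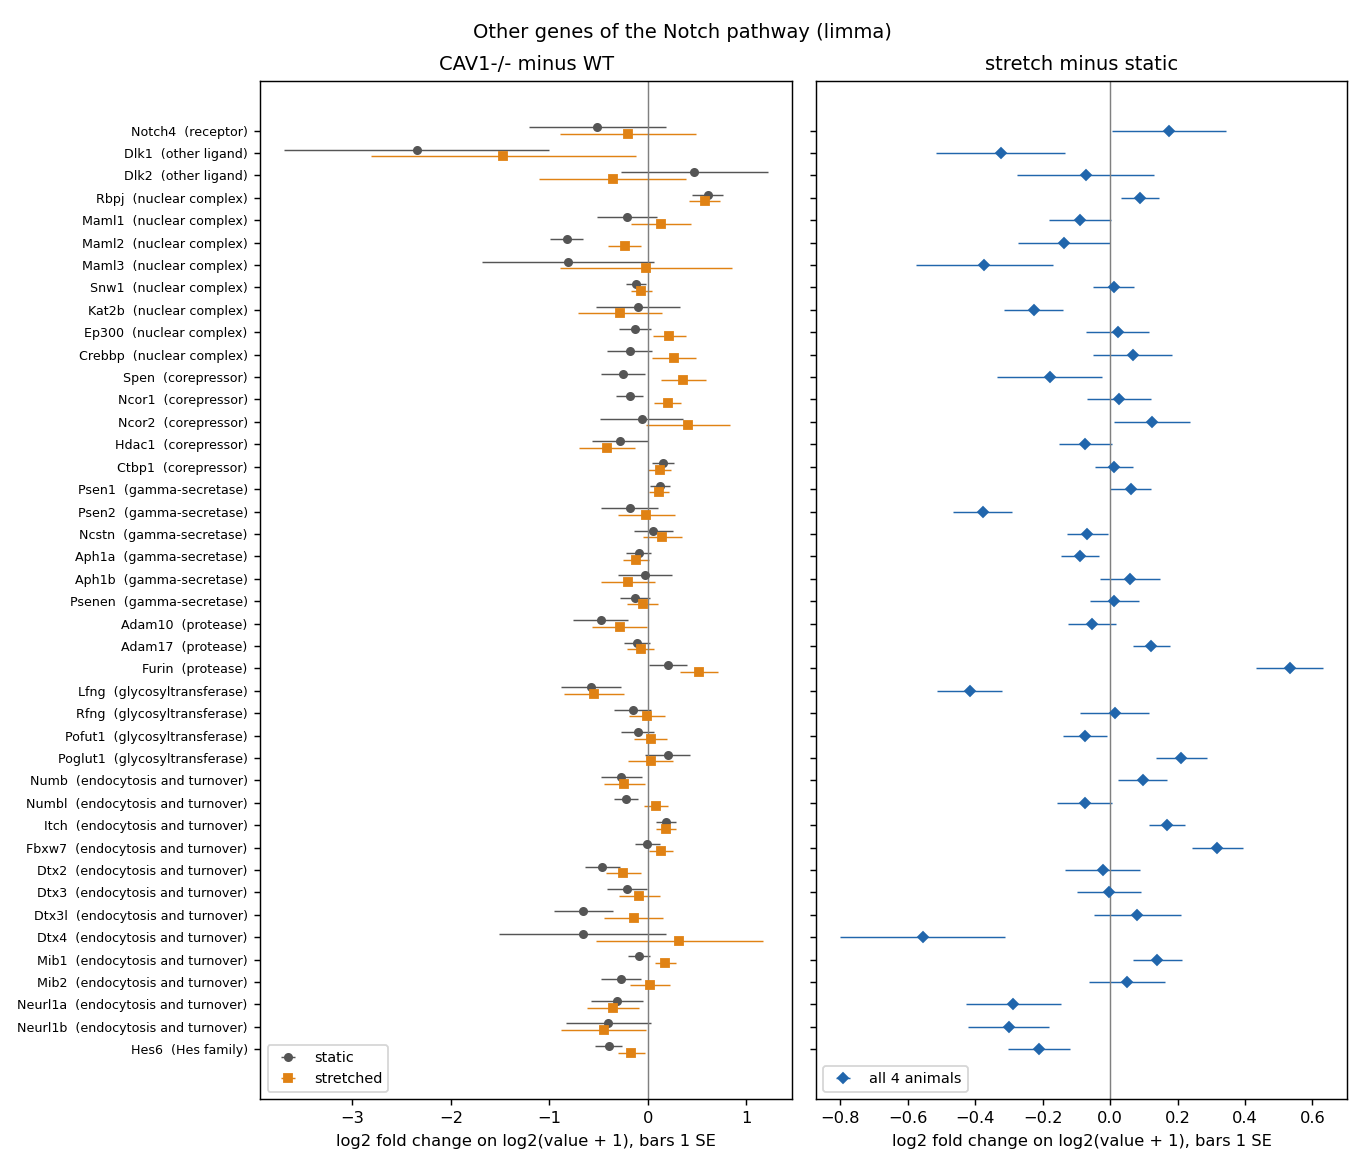
Log2 fold changes of the 42 other Notch pathway genes on the log2(value + 1) scale with bars of 1 SE (limma), arranged by role. On the left, CAV1-/- minus WT in static (grey) and stretched (orange) cultures, where Rbpj lies at 0.61 and 0.58; on the right, stretched minus static over 4 animals, where Furin at 0.53 is the highest.

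Over the 8 libraries, the genes whose profile was most like that of Jag1 among 10797 genes with a mean of at least 5 were Apol9b (Pearson r = 0.989 of log2(value + 1)), Cox11 (0.982) and Gm20634 (0.977). For Notch1 they were Tmem164 (0.992), Pogk (0.988) and Dysf (0.982). Apol9b ran from 2.83 TMM-normalized CPM in static WT replicate 2 to 20.4 in stretched CAV1-/- replicate 1, the same libraries in which Jag1 was lowest and highest. Cox11, an assembly factor of cytochrome c oxidase, had a profile of the same shape but a small range, from 6.68 to 9.65. These are descriptions over 8 points that share animals and library depth.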

How the data were processed

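RNAseq of 8 MC cultures was analysed (4 groups of 2, 61-base single reads). Reads were trimmed with Cutadapt and assigned to GRCm38 transcripts with RSEM by the authors. The signal they deposited is TMM-normalized CPM and covers 13687 genes, the lowest having been dropped by the authors. Values were whole multiples of 1 read (100% whole, within 0.01 reads), and library totals were 9777738 to 21203938 reads. Floors of 3 reads cover counting error only.

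Genes reaching 1 in 2 or more libraries (13665) were fitted on log2(value + 1) with limma (version 3.58.1, R version 4.3.3, eBayes with trend), 1 mean per group, and Benjamini-Hochberg adjustment over all genes. Genes were called at an adjusted p under 0.05. The stretch effect over 4 animals used 1 mean per animal. Fold changes on this scale understate the change of low genes. Animal numbers in the labels pair static with stretched cultures (correlation of deviations 0.703 in WT and 0.85 in CAV1-/- MCs). Alternatives were pseudocounts of 0.1 and 5, other filters, median-of-ratios rescaling, edgeR (version 4.0.16) and DESeq2 (version 1.42.0) on recovered reads, replicate blocks, each culture left out, and both cultures of CAV1-/- replicate 1 left out. Tests were also run on simulated reads, in which a changed gene had a fixed fold change with no difference in response between animals. Responses in these data did differ between animals, so the simulation does not measure error rates here.

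The members and gene lists were chosen with earlier results of these data known. All members were named, and of the other pathway genes those past the adjusted threshold or with an unadjusted p of at most 0.05 and groups that did not overlap. Cav1 was named as the targeted gene, and the 3 most similar genes for the 2 members of largest range. Positions are from GENCODE on GRCm38, in which 13597 gene identifiers were found, and promoter windows from RefSeq on GRCm38.p6. Strandedness of the counting is not given in the sources used here. The study's text gives more cultures per condition than the 2 analysed here.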

Additional observations from a re-analysis of the deposited data

Results flagged for a closer look

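Maml2, a Mastermind coactivator, was lower in both stretched WT cultures than in the static ones (34.0 to 23.5 and 33.3 to 25.9 TMM-normalized CPM) and higher in both stretched CAV1-/- cultures (15.99 to 20.1 and 21.59 to 21.62), a difference in response of 0.59 on the log2 scale (SE 0.24, limma adjusted p = 1). It is listed because both animals of 1 genotype differed in the direction opposite to both animals of the other, and it did not pass the adjusted threshold. In CAV1-/- replicate 2 the stretched level was only 1.00 times the static one. The same split of directions was found for 6 other pathway genes (Crebbp, Dlk1, Dlk2, Dtx3l, Ncor1 and Numbl, named after their values were seen), so it is not particular to Maml2 among the 42. How many of all genes tested show this split was not counted, so these counts cannot be set against a background. Groups of 2 cultures were too small to look for single cultures far from the rest.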

How the results depend on the processing

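Precision is limited by the 2 cultures per group, and depth follows stretching. Of 342 member log2 values under settings other than leaving out 1 culture, 333 kept direction and side of the threshold. The exceptions were Jag1 over the 4 animals, which lost its call without the replicate block (1.76, adjusted p = 0.703) and without both cultures of CAV1-/- replicate 1 (1.72, adjusted p = 0.103), and 7 small values that changed sign. These were Notch1 on stretch in CAV1-/- MCs (-0.0758 with edgeR and -0.0876 with DESeq2), Hes1 between genotypes without both cultures of CAV1-/- replicate 1 (-0.13 static and -0.0486 stretched), and the interaction of Notch3 (-0.0363 with a pseudocount of 5 and -0.0127 with median-of-ratios rescaling) and of Jag2 (-0.18 without both cultures of CAV1-/- replicate 1). The cause of these changes was not tested.

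Members called over the 4 animals fell from 1 to 0 without the replicate block and without both cultures of CAV1-/- replicate 1. Genes called over the 4 animals were 308, 779 with DESeq2, 0 without the replicate block (limma, 868 at an unadjusted p of at most 0.05) and 4 without both cultures of CAV1-/- replicate 1. For stretch in WT DESeq2 called 3 genes. For stretch in CAV1-/- MCs DESeq2 called 7, and the replicate block 1 with limma and 2 with edgeR. Between genotypes in static cultures edgeR called 2, DESeq2 309, the replicate block 246 with limma and 229 with edgeR, and 0 were called by limma without both cultures of CAV1-/- replicate 1 (1188 at an unadjusted p of at most 0.05). In stretched cultures DESeq2 called 237, the replicate block 110 with limma and 92 with edgeR, and 0 were called by limma without both cultures of CAV1-/- replicate 1 (974 unadjusted). In the genotype comparisons equal numbers are different animals (correlation of deviations 0.522 static and 0.484 stretched), so the block there pairs cultures by number only, and it called no member. The block changed no other call of a member.

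Leaving out 1 culture at a time, genes called ran from 0 to 8 between genotypes in static, 0 to 7 in stretched cultures and 0 to 147 over the 4 animals, where members called ran from 0 to 1. The Jag1 change over the 4 animals ran from 1.57 to 2.11. In that comparison leaving out 1 culture takes its animal out of the stretch effect. Leaving out either culture of an animal, or both, is therefore not a separate check. Values that changed sign ran, on stretch in WT, from -1.22 to 0.54 (Notch1), -0.51 to 0.13 (Notch2), -0.30 to 0.0208 (Jag2) and -0.11 to 0.49 (Hes1). On stretch in CAV1-/- MCs they ran from -0.52 to 0.57 (Notch1), -0.12 to 0.29 (Notch2), -0.96 to 0.11 (Notch3) and -0.26 to 0.11 (Jag2). Between genotypes they ran from -0.0064 to 0.31 (Notch2, static), -0.13 to 0.20 (Hes1, static) and -0.12 to 0.48 (Hes1, stretched). For the interaction they ran from -0.52 to 1.25 (Notch1), -0.0416 to 0.60 (Notch2), -0.53 to 0.54 (Notch3), -0.61 to 1.55 (Jag1), -0.12 to 0.25 (Jag2) and -0.16 to 0.44 (Hes1), and over the 4 animals from -0.13 to 0.0463 (Notch2). The alternatives for pathway genes were added after seeing the data. Of them Furin lost its call with a pseudocount of 5, with edgeR, without the replicate block and without both cultures of CAV1-/- replicate 1 (0.43, adjusted p = 0.129), and Maml2 gained one with DESeq2.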
